A study of Homo sapiens with 17 samples.

Results

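VGF, CCK, SCN4B, MRGPRX4 and MEGF10 are 5 of the 62754 genes counted in 17 RNA-seq libraries of IMR90 ER:RAS cells. They were selected on their measured log2 difference between 4OHT siSMARCA4 and 4OHT siNT, as the neural-type genes that fell most when SMARCA4 was knocked down in senescent cells, so that fall is given below as a description, with no test. IMR90 ER:RAS cells are human lung fibroblasts carrying a retroviral fusion of an oestrogen receptor domain with oncogenic RAS, which 4-hydroxytamoxifen (4OHT) activates, driving the cells into oncogene-induced senescence. SMARCA4 (BRG1) is an ATPase of the SWI/SNF complexes, which reposition nucleosomes. All libraries came from cells reverse transfected with an siRNA and collected at day 7. The groups were DMSO siNT, non-senescent cells with a non-targeting siRNA (5 libraries), 4OHT siNT, senescent cells with that control (6 libraries), and 4OHT siSMARCA4, senescent cells with an siRNA against SMARCA4 (6 libraries). No library joined DMSO with siSMARCA4, so the effect of the knockdown on these genes outside senescence was not measured.

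Each label carried an siRNA number, 2 or 4, and a tag ending in V or VM. The number stands beside siNT as well as siSMARCA4, and what it marks for siNT, and what V and VM mean, is not given in the sources used here. In 4OHT siSMARCA4, 3 libraries carried number 2 (2-1VM, 2-3V and 2-3VM) and 3 carried number 4 (4-2V, 4-2VM and 4-3V). All 6 libraries of 4OHT siNT were VM. Nothing in the labels says that libraries of a group came from separate cultures, so p-values measure the spread between these libraries, which may be technical.

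Library totals ranged from 39.1 to 69.0 M counts (M, 1e6 counts). SMARCA4 itself, the check of the knockdown, was at 268 ± 13.2 CPM (counts per 1e6 counts, scaled by TMM factors for library composition; SD, n = 6) in 4OHT siNT and 88.1 ± 22.8 CPM (n = 6) in 4OHT siSMARCA4. The groups did not overlap, and both numbers showed the fall, with 83.6 ± 17.8 CPM (n = 3) for number 2 and 92.6 ± 30.3 CPM (n = 3) for number 4. In bulk RNA, fewer cells that express a gene and less RNA per cell cannot be told apart.

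VGF and CCK encode secreted precursors that neurons and endocrine cells store in dense-core vesicles and cleave into peptides. VGF, induced by nerve growth factor, belongs to the extended granin family, and CCK gives cholecystokinin, a gut hormone that is also an abundant brain neuropeptide. SCN4B encodes the β4 subunit of voltage-gated sodium channels, a membrane protein that modulates the pore-forming subunit and is linked to the resurgent current of fast-firing neurons. MRGPRX4 is a G protein-coupled receptor of sensory neurons, known for itch evoked by bile acids. MEGF10 is an engulfment receptor with epidermal growth factor-like repeats, by which astrocytes take up synapses and cell debris, and it also acts in muscle satellite cells. Outside the nervous system many neuronal genes are held down by the repressor REST with its co-repressors, and VGF is a textbook target of cAMP signalling through CREB.

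The promoters are shown because the 5 genes, which lie on 4 chromosomes, share the fall that selected them. Below are the 100 bases before each annotated start, from RefSeq on GRCh38.p14, 5′ to 3′ on the strand of the gene. Capitals mark a cAMP response element (CRE, TGACGTCA), a GC box (GGGCGG) or a TATA box (TATAAA), found on either strand, so that a box on the other strand reads as its reverse complement.
VGF (7:101165570-101165669, minus strand): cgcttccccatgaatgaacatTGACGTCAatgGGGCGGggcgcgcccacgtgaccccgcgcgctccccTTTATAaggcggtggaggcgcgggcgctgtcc
CCK (3:42266186-42266285, minus strand): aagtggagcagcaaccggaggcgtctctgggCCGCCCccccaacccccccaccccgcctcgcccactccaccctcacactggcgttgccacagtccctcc
SCN4B (11:118145434-118145533, minus strand): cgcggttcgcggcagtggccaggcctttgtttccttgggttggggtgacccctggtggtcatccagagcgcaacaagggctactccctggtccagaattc
MRGPRX4 (11:18172737-18172836, plus strand): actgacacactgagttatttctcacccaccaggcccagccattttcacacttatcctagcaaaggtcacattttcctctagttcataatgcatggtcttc
MEGF10 (5:127290696-127290795, plus strand): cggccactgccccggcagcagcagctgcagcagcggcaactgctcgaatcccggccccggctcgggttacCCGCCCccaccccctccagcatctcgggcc

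The stretches differed in make-up. MRGPRX4 had 44% G and C, below the median of 60% over all promoters in the table, while VGF had 68% and MEGF10 75%. VGF was the only one of the 5 whose 300-base window, from 250 bases before to 50 after the start, held a full CRE, 79 bases before the start. That sequence stood in 1.85% of the 35116 windows of the same length. Its half-site (TGACG) stood in 24.6%, and both half-site matches of VGF lay within the CRE, so they are not separate matches. SCN4B held a half-site of its own, 248 bases before the start. The TATA box of VGF began 32 bases before the start and that of MRGPRX4 133 bases before it, and TATAAA stood in 11.5% of windows. GC boxes stood in 45% of windows, including those of VGF, CCK, SCN4B and MEGF10, and E-boxes (CANNTG) in 68.7%, including those of the same 4 genes. The AP-1 motif (TGANTCA), present in 7.71% of windows, was in none of the 5. These are matches of letters in a fixed window. CCK has a second annotated start in the table, whose window held 2 TATA matches and none of the other motifs. These began 213 and 211 bases before that start, so they overlap and are not separate matches. The start listed for SCN4B lies inside the GENCODE body of the gene. Further promoters of these genes were not examined.

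**Figure D1:**
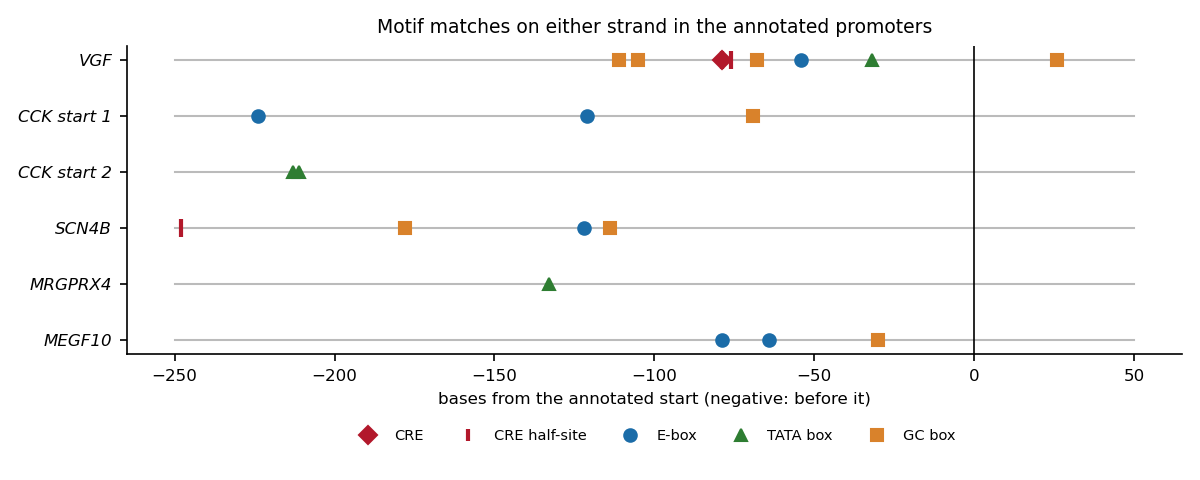
Motif matches on either strand in the RefSeq promoter windows of the 5 genes, one line per annotated start; the horizontal axis gives bases from the start, from 250 before to 50 after. The CRE of VGF, 79 bases before the start, is the only full CRE drawn.

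All 5 genes were protein-coding and on GRCh38 in GENCODE 44. VGF (ENSG00000128564) lay at 7:101162509-101165569 on the minus strand, CCK (ENSG00000187094) at 3:42257825-42266185 on the minus strand, and SCN4B (ENSG00000177098) at 11:118133377-118152888 on the minus strand. MRGPRX4 (ENSG00000179817), a gene of 1 exon, lay at 11:18172837-18174280 on the plus strand, and MEGF10 (ENSG00000145794) at 5:127290796-127465737 on the plus strand. All 5 passed the filter on low counts, but MRGPRX4 and MEGF10 did so through 4OHT siNT alone: over all libraries of a group, MRGPRX4 had 8 counts in DMSO siNT, 137 in 4OHT siNT and 8 in 4OHT siSMARCA4, and MEGF10 had 6, 169 and 12.

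Per kilobase of exon, the 5 genes sat at very different levels in 4OHT siNT. VGF led with a mean of 31.1 CPM per kb, followed by CCK at 0.987, SCN4B at 0.610, MRGPRX4 at 0.323 and MEGF10 at 0.0610. Within each of the 6 libraries VGF was highest, CCK next and MEGF10 lowest. SCN4B and MRGPRX4 changed places: SCN4B was the higher in the 3 libraries of number 2 and MRGPRX4 in the 3 of number 4, so the order of that pair did not hold across the group. Between libraries the ranges of CCK, SCN4B and MRGPRX4 overlapped.

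VGF was the most abundant of the 5, with 217 to 5792 counts in a library. In DMSO siNT it was at 8.71 CPM in 2-1V, 9.81 in 2-2V, 6.18 in 2-2VM, 8.27 in 4-2VM and 9.48 in 4-3VM. In 4OHT siNT it was at 87.4, 103 and 133 CPM in the 3 libraries of number 2, and at 68.4, 49.6 and 58.7 CPM in the 3 of number 4. In 4OHT siSMARCA4 it was at 4.28, 5.14 and 5.40 CPM in number 2, and at 5.74, 8.77 and 6.94 CPM in number 4. Thus every senescent control library stood far above both other groups, which overlapped with each other. The group means were 8.49 ± 1.43 (n = 5), 83.4 ± 31.2 (n = 6) and 6.05 ± 1.59 CPM (n = 6), so that the mean in 4OHT siSMARCA4 was 13.8-fold below that in 4OHT siNT.

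CCK was far scarcer, and its knockdown libraries ended below its level in growing cells. It was at 0.611 CPM in DMSO 2-1V, 0.756 in 2-2V, 1.56 in 2-2VM, 0.562 in 4-2VM and 0.789 in 4-3VM. In 4OHT siNT, number 2 gave 2.69, 3.35 and 3.53 CPM, and number 4 gave 1.01, 0.636 and 1.00 CPM. In 4OHT siSMARCA4, number 2 gave 0.0197, 0.244 and 0.0391 CPM, and number 4 gave 0.176, 0.161 and 0.135 CPM. The knockdown libraries, with 1 to 13 counts each, lay below every library of the other groups, whereas the number 4 controls shared their range with DMSO. The group means were 0.856 ± 0.406 (n = 5), 2.04 ± 1.30 (n = 6) and 0.129 ± 0.0854 CPM (n = 6).

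SCN4B had the largest fitted fall of the 5 over all libraries, though not within number 4, and its controls split by siRNA number. In DMSO siNT it was at 1.12 CPM in 2-1V, 1.53 in 2-2V, 6.54 in 2-2VM, 1.63 in 4-2VM and 1.16 in 4-3VM. In 4OHT siNT, number 2 gave 5.58, 5.29 and 8.06 CPM, and number 4 gave 0.505, 0.745 and 0.492 CPM. In 4OHT siSMARCA4, number 2 gave 0, 0.150 and 0.0783 CPM, and number 4 gave 0.0732, 0.0604 and 0.0773 CPM. Each knockdown library held 0 to 8 counts and lay below every other library. The senescent controls split by number: those of number 4 lay below all 5 DMSO libraries, and those of number 2 lay above 4 of the 5. The group means were 2.39 ± 2.33 (n = 5), 3.44 ± 3.28 (n = 6) and 0.0732 ± 0.0479 CPM (n = 6).

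MRGPRX4, the sensory receptor, was close to absent outside the senescent controls. It had 1 or 2 counts in each DMSO siNT library. In 4OHT siNT it had 33, 38 and 29 counts in number 2 (0.633, 0.676 and 0.759 CPM) and 13, 15 and 9 counts in number 4 (0.285, 0.272 and 0.170 CPM). In 4OHT siSMARCA4 the 3 V libraries held 2 or 3 counts each and the 3 VM libraries held 0. The senescent controls did not overlap either other group. A total of 0 in the 3 VM libraries allows a level of up to 0.0198 CPM (3 counts over the 3 libraries, counting error only). The group means were 0.0295 ± 0.0115 (n = 5), 0.466 ± 0.251 (n = 6) and 0.0239 ± 0.0281 CPM (n = 6).

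MEGF10, the engulfment receptor, showed the same outline at a lower level per kilobase. It had 1, 0, 3, 0 and 2 counts in the DMSO siNT libraries. In 4OHT siNT it had 44, 37 and 15 counts in number 2 (0.844, 0.659 and 0.392 CPM) and 19, 34 and 20 counts in number 4 (0.417, 0.618 and 0.379 CPM). In 4OHT siSMARCA4 it had 0, 0 and 2 counts in number 2, and 8, 1 and 1 counts in number 4. Every senescent control library lay above every other library, and, unlike the other 4 genes, the controls of the 2 numbers shared their range. The group means were 0.0206 ± 0.0224 (n = 5), 0.551 ± 0.187 (n = 6) and 0.0326 ± 0.0439 CPM (n = 6).

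**Figure D2:**
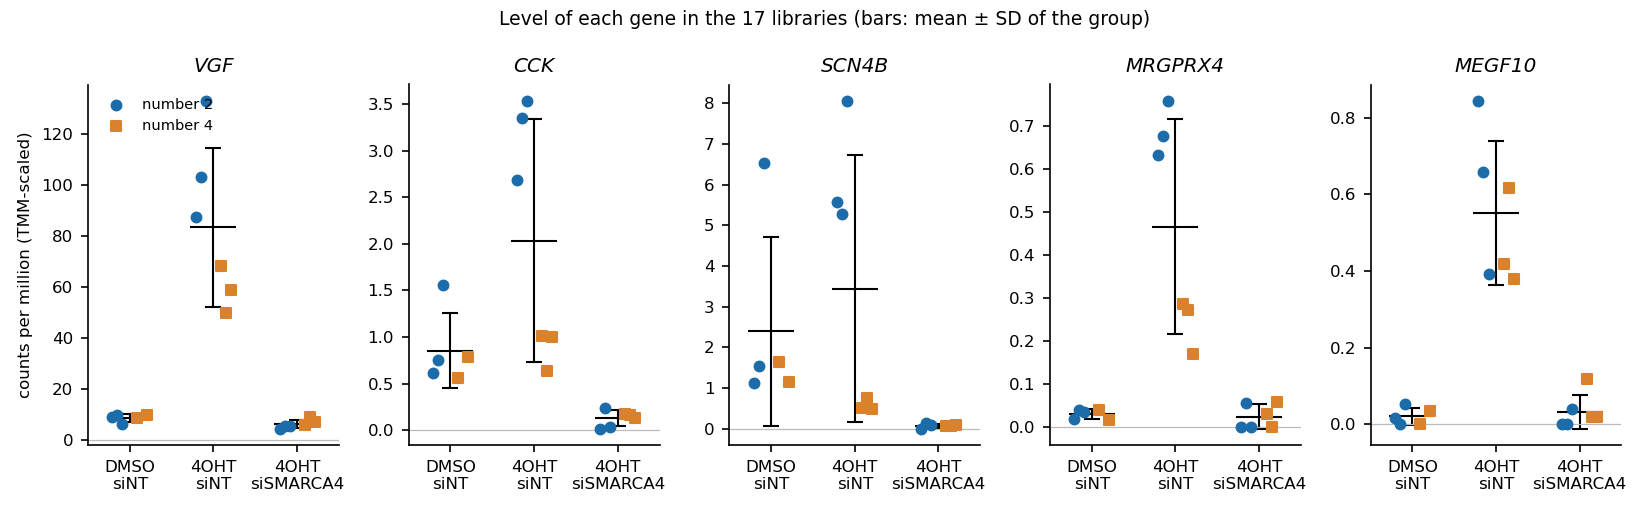
TMM-scaled CPM of each gene in each of the 17 libraries, 1 panel per gene with its own linear axis; circles are libraries of siRNA number 2, squares of number 4, and bars the mean ± SD of the group. In every panel the 4OHT siNT libraries lie above all 4OHT siSMARCA4 libraries, which follows from the choice of genes. For VGF, CCK, SCN4B and MRGPRX4 the number 2 controls of 4OHT siNT lie above the number 4 controls, and the share of all genes split in this way was not counted.

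The contrast that chose the genes was 4OHT siSMARCA4 against 4OHT siNT. In it 24.2% of 19473 genes tested passed an adjusted p of 0.05 (edgeR quasi-likelihood with Benjamini-Hochberg adjustment), with 10.4% higher and 13.8% lower. The fitted log2 differences were -5.50 for SCN4B, -4.12 for MRGPRX4, -3.93 for CCK, -3.87 for MEGF10 and -3.79 for VGF. These held ranks 1 to 5 among the 1398 genes that passed as lower with no overlap between the groups, so the 5 are also the largest such falls of any gene. The ranks restate the values that chose the genes and are no support for them. Those of MRGPRX4 and MEGF10 rest on 8 and 12 counts in 4OHT siSMARCA4. Just outside the 5 stood ASTN1 at -3.73, ILDR2 at -3.58, CXCR4 at -3.56, IVL at -3.34 and HEPHL1 at -3.27. The gap between VGF, the last of the 5, and ASTN1, a neuronal migration gene, was smaller than the SE of the difference for VGF (0.24).

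The fall could be set out for each siRNA number. Number 2 gave a log2 difference of -4.45 for VGF, -4.93 for CCK and -6.31 for SCN4B against the 4OHT siNT libraries of the same number. Number 4 gave -3.04, -2.46 and -3.0 for the same genes. For MRGPRX4 the 3 knockdown libraries held 3 counts in number 2 and 5 in number 4, and for MEGF10 they held 2 and 10, too few for a stable fold within a number. For all 5 genes, within both numbers, every knockdown library lay below every control library, which follows from the choice of genes whose groups did not overlap. Of all genes 11% passed as lower with number 2 and 6.13% with number 4, and nothing is read from the 5 against these shares. The estimates for VGF, CCK and SCN4B were larger with number 2. Each was set against siNT libraries of the same number, and what that number marks for siNT is not known.

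The numbers were then compared within each group. The choice of genes did not compare them but favoured high values in 4OHT siNT, which a high number 2 raises, so the tests within 4OHT siNT are not independent of it. Within 4OHT siNT, number 2 was higher than number 4 for VGF by 0.87 on the log2 scale (95% interval 0.48 to 1.27, adjusted p = 0.0209), for CCK by 1.85 (0.90 to 2.80, adjusted p = 0.0339) and for SCN4B by 3.43 (2.08 to 4.78, adjusted p = 0.0131). MRGPRX4 differed by 1.5 (0.48 to 2.51) and MEGF10 by 0.43 (-0.71 to 1.57). Both passed the filter on low counts only through 4OHT siNT and are given with no test. So VGF, CCK and SCN4B passed. Of all genes 3.59% did and 2.71% were higher in number 2, and nothing is read from the 5 against these shares. The 3 controls of number 2 lay above the 3 of number 4 for VGF, CCK, SCN4B and MRGPRX4. The share of all genes split in this way was not counted, so nothing is read from the number of the 5 that were. The calls rested on 3 libraries against 3: that of VGF was lost without 4-1VM, 2-2VM, 4-2VM or 2-3VM of 4OHT siNT (adjusted p 0.0702 to 0.157), that of CCK also without 4-3VM (0.0576 to 0.192), and that of SCN4B without 4-1VM, 4-2VM or 2-3VM (0.0770 to 0.0863).

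Within 4OHT siSMARCA4 no difference between the numbers passed for VGF, CCK or SCN4B. VGF had a log2 difference of -0.53 (95% interval -0.95 to -0.10, adjusted p = 0.289). CCK differed by -0.62 (-1.97 to 0.74, adjusted p = 0.712) and SCN4B by 0.12 (-2.18 to 2.42, adjusted p = 0.974). MRGPRX4, at -0.55 (-2.60 to 1.5), and MEGF10, at -1.95 (-4.29 to 0.39), are again given with no test. Of all genes 0.231% passed. The intervals of the 4 scarce genes are wide, since the knockdown libraries held few counts, and leave room for differences of several-fold.

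The difference between the 2 falls is built from the values that chose the genes, so it is a description, with no test. It was -1.40 on the log2 scale for VGF (SE 0.27, 95% interval -1.98 to -0.82). CCK was at -2.47 (-4.12 to -0.82), SCN4B at -3.31 (-6.07 to -0.54), MRGPRX4 at -2.05 (-4.43 to 0.33) and MEGF10 at -2.38 (-4.98 to 0.22), where a negative value is a larger fall with number 2. Of all genes 0.714% passed an adjusted p of 0.05 for this difference, and 0.627% in the negative direction. For VGF this is the difference between the numbers in 4OHT siSMARCA4, -0.53, less that in 4OHT siNT, 0.87. For CCK these parts were -0.62 and 1.85, and for SCN4B 0.12 and 3.43. In all these genes the part from the siNT libraries was the larger, so the values are not a measure of how strongly each siSMARCA4 number lowered them. The log2 difference of SMARCA4 itself was -1.63 with number 2 and -1.58 with number 4.

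The tag endings V and VM were also compared, with group in the model. VGF, CCK and SCN4B did not pass, beside 1.95% of all genes, with estimates from -0.64 for SCN4B to 0.18 for CCK. All 4OHT siNT libraries were VM, so the comparison rests on DMSO siNT and 4OHT siSMARCA4. There MRGPRX4 held 8 and 8 counts and MEGF10 6 and 12. The estimates for these genes, 1.33 and 0.31, are given with no test. For MRGPRX4 the V libraries of the knockdown group held all of its 8 counts. SMARCA4 itself also split by tag in that group. It was at 82.7 to 127 CPM in the 3 V libraries and at 68.4 to 78.3 CPM in the 3 VM libraries. With group in the model its estimate was 0.20 (adjusted p = 0.394). Within the knockdown group the means of CCK, SCN4B and MEGF10 were higher in V, and that of VGF was lower (5.94 against 6.15 CPM). The ranges of CCK and SCN4B overlapped between the tags. For MEGF10, library 4-2V held 8 of the 9 counts in V, and the median was no higher in V (0.0193 against 0.0201 CPM). Whether these levels follow the SMARCA4 left in each library was not tested.

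Senescence alone was the next comparison, 4OHT siNT against DMSO siNT. It shares the 4OHT siNT libraries with the contrast that chose the genes, and genes high in those libraries were favoured by the choice, so these tests are not independent of it. MRGPRX4 and MEGF10 moreover passed the filter on low counts only through 4OHT siNT and so had to be higher there, and no test is given for them: their mean CPM was 15.8-fold and 26.8-fold that in DMSO siNT, where they had 8 and 6 counts in all. VGF was higher by 3.3 on the log2 scale (95% interval 2.78 to 3.81, adjusted p = 1.95e-09) and CCK by 1.24 (0.28 to 2.21, adjusted p = 0.0288). SCN4B was at 0.52 (-0.89 to 1.92, adjusted p = 0.544). Of all genes 54.4% passed, 27.0% higher and 27.4% lower, and since the choice of genes favoured high values in 4OHT siNT, nothing is read from the number of the 5 that passed. Without scaling factors the median of all genes moved by -0.11 and the genes passing went from 5256 higher and 5345 lower to 4219 higher and 6467 lower.

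CCK and SCN4B depended on single libraries and numbers. The controls of number 4 alone gave 0.33 for CCK (adjusted p = 0.443) and -1.30 for SCN4B (adjusted p = 0.00679), so SCN4B was lower in senescent than in growing cells with that number. DMSO library 2-2VM stood apart in both genes. Without it CCK was at 1.55 (adjusted p = 0.0122) and SCN4B at 1.31 (adjusted p = 0.110). The call for CCK was also lost without any one of DMSO 2-1V, 2-2V, 4-2VM or 4-3VM or of 4OHT siNT 2-1VM, 2-2VM or 2-3VM (adjusted p 0.0513 to 0.0746).

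Knockdown cells were then set against growing cells, 4OHT siSMARCA4 against DMSO siNT, to see where each gene ended. This comparison shares the 4OHT siSMARCA4 libraries with the contrast that chose the genes, and its tests are likewise not independent. CCK ended lower (log2 difference -2.69, 95% interval -3.81 to -1.57, adjusted p = 2.86e-04) and SCN4B lower still (difference -4.98, -6.85 to -3.11, adjusted p = 9.68e-05). VGF was at -0.49 (-0.97 to -0.01, adjusted p = 0.0770). MRGPRX4, at -0.23 (-1.94 to 1.49), and MEGF10, at 0.68 (-1.08 to 2.43), passed the filter on low counts only through 4OHT siNT and are given with no test. Of all genes 55.1% passed and 28.6% were lower, and nothing is read from the 5 against these shares, since they were chosen for low values in 4OHT siSMARCA4. Without DMSO 2-2VM the differences were -2.38 for CCK (adjusted p = 0.00116), -4.18 for SCN4B (adjusted p = 3.45e-04) and -0.61 for VGF (adjusted p = 0.0379), the last of which then passed.

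**Figure D3:**
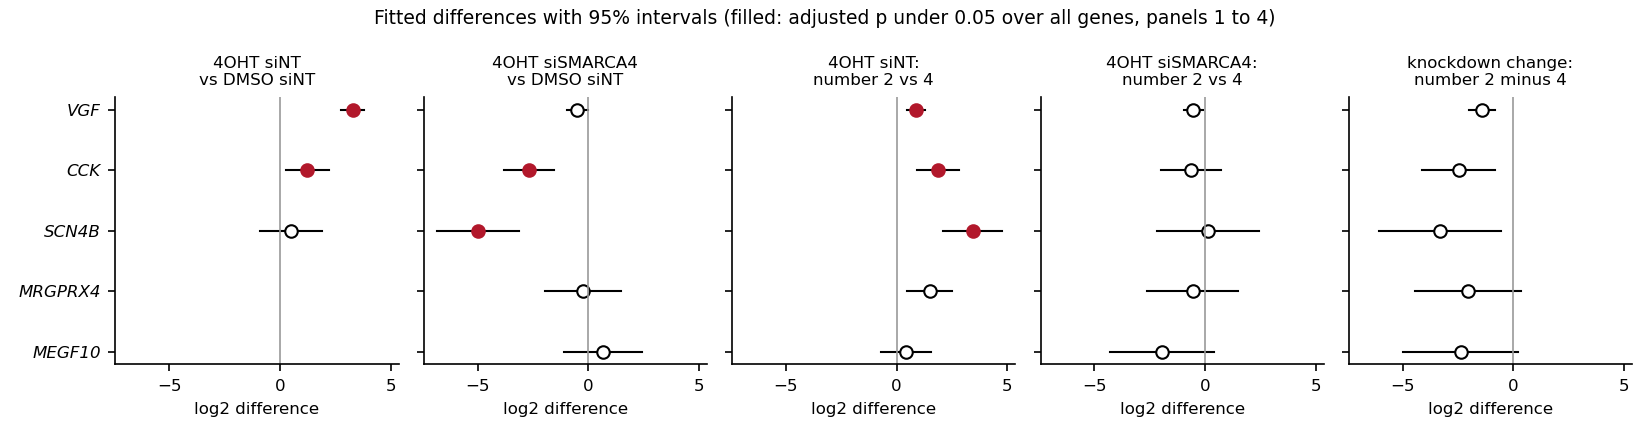
Fitted log2 differences (points) with 95% intervals (lines) for the 5 genes in 5 comparisons. Filled points passed an adjusted p of 0.05 over all genes. MRGPRX4 and MEGF10 are left out of the first panel and given with no test in the others, and no gene has a test in the last. CCK passed in 3 panels, VGF and SCN4B in 2 each, and the panel of number 2 against number 4 within 4OHT siSMARCA4 has no filled point.

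How far the genes moved together was described by Pearson correlation of log2 CPM over the 17 libraries, which share 3 group means that the choice of genes fixed. Correlation about the group means is given beside it. That measure takes out the 3 means only, so differences between the siRNA numbers within a group, and single libraries apart, remain in it. CCK and SCN4B were the closest pair about the group means, at 0.937 overall and 0.850 about the means. Both were higher in number 2 than in number 4 within 4OHT siNT, and DMSO 2-2VM was the highest of its group in both. The 0.850 includes that split and that library, and closeness apart from them was not tested. VGF and MRGPRX4 reached 0.942 overall but 0.510 about the means, and VGF and MEGF10 0.908 and -0.01. MEGF10 thus shared the outline of the groups with VGF. It held 0 to 3 counts in a DMSO siNT library and 0 to 8 in a 4OHT siSMARCA4 library. With so few counts, the -0.01 cannot show whether variation between libraries is shared.

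Over all genes tested, excluding the 5, the closest patterns included those of PIDD1 (r = 0.945) and LINC00880 (0.925) for VGF. For CCK they were DACH2 (0.957), TSPAN9 (0.954) and CLEC11A (0.95), and for SCN4B EPHB6 (0.948), LIMK2 (0.947) and ADAMTS19 (0.938). For MRGPRX4 they included MYEOV (0.951) and TNFRSF21 (0.944), and for MEGF10 they were PIDD1 (0.954), PPP2R5D (0.954) and MIDN (0.945). PIDD1 stood on 2 of these lists. About the group means r was 0.941 for SCN4B with EPHB6 and 0.828 for CCK with DACH2, against 0.211 for VGF with PIDD1.

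The lists that follow group relatives of the 5 genes, and their counts leave the 5 out. They read against 10.4% of all genes higher and 13.8% lower on knockdown, and 27.0% higher and 27.4% lower with senescence. Genes near 0 in DMSO siNT, such as CADPS, MRGPRX3 and PECAM1, passed the filter on low counts only through 4OHT libraries. Their rises with senescence are in the counts but nothing is read from them. The relatives of VGF are granins and dense-core vesicle genes. In 4OHT siSMARCA4 against 4OHT siNT, 3 of 21 tested rose and 6 fell, and their median was 0.00 beside -0.02 over all genes. The granin SCG2 rose by 1.33 on the log2 scale, as did the vesicle GTPase RAB27B by 0.82 and the vesicle fusion protein VAMP2 by 0.34. The calcium sensor SYT1 (-1.57), PTPRN2 (-1.09) and CADPS, a priming factor of dense-core vesicles (-1.06), fell. The call for PTPRN2 was lost (adjusted p up to 0.0920) without any one of 4OHT siNT 2-1VM, 2-2VM or 2-3VM or of 4OHT siSMARCA4 2-1VM, 2-3V, 2-3VM or 4-2VM, and in number 4 alone its difference turned to 0.13 (adjusted p = 0.860). With senescence 9 of the 21 rose and 5 fell, led by CADPS at 5.14, the granin-like chaperone SCG5 at 3.23 and RAB3A at 2.21, while SNAP25, a fusion protein of the plasma membrane, fell by 3.07. The mean of SCG5 was 2.33 CPM in DMSO siNT, 21.9 in 4OHT siNT and 25.1 in 4OHT siSMARCA4.

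Among neuropeptide precursors, the relatives of CCK, 1 of 16 tested rose on knockdown and 3 fell, with a median of -0.02. NPPC, which encodes C-type natriuretic peptide, rose by 1.54. Those that fell were APLN (apelin, -2.01), CRH (corticotropin-releasing hormone, -1.78) and UCN2 (a urocortin, -0.70, but 0.069 in number 2 alone). With senescence 4 rose and 6 fell, among them galanin (GAL, 2.23 CPM in DMSO siNT, 42.9 in 4OHT siNT and 32.4 in 4OHT siSMARCA4), with a log2 difference of 4.26. KISS1, which encodes kisspeptin, fell by 3.85 on the log2 scale. Within 4OHT siNT, APLN was also higher in number 2 than in number 4, by 1.77 (adjusted p = 0.00538, but 0.0527 without 4-2VM of 4OHT siNT), in the same direction as CCK.

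SCN4B was set beside other sodium channel subunits. Of 6 subunits tested, 0 rose and 4 fell on knockdown, and the median was -0.70. Among those that fell were the pore-forming subunits SCN2A (-1.20), SCN8A (-0.75) and SCN9A (-0.64). SCN9A, the channel of pain-sensing neurons, fell already with senescence, from 123 to 10.6 CPM, a log2 difference of -3.54. Of other β subunits, SCN3B rose with senescence by 1.70, and SCN2B had 50 counts over all libraries and was not tested.

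MRGPRX4 shared its outline with its neighbour and relative MRGPRX3, which lies 34.3 kb away on the same strand. MRGPRX3 had means of 0.0355 CPM in DMSO siNT, 3.38 in 4OHT siNT and 0.552 in 4OHT siSMARCA4. Near 0 in DMSO siNT, it passed the filter on low counts only through 4OHT libraries. Its log2 difference of 6.46 with senescence is therefore given with no test. MRGPRX3 fell on knockdown (log2 difference -2.60, adjusted p = 9.98e-04). MRGPRF, the other relative tested, fell with senescence (log2 difference -2.73), from 70.5 to 10.6 CPM, and was at 8.84 CPM after knockdown. MRGPRX1, MRGPRX2, MRGPRD and MRGPRG had 0 counts in all 17 libraries. The 2 counted X receptors are near relatives with similar sequences, and the authors' counting could split reads between them.

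Of 14 other MEGF and engulfment receptors tested, 1 rose on knockdown and 5 fell, with a median of -0.19. The scavenger receptor CD36 rose by 0.44, while PEAR1, a relative of MEGF10 (-1.46), and LRP1 (-0.70) were among those that fell. With senescence 2 of the 14 rose, ADGRB1 by 1.53 and SCARF1 by 1.13, and 6 fell, among them MEGF6 (-4.75) and PEAR1 (-3.03). MEGF11, a close relative of MEGF10, held 10 counts over all libraries and was not tested.

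**Figure D4:**
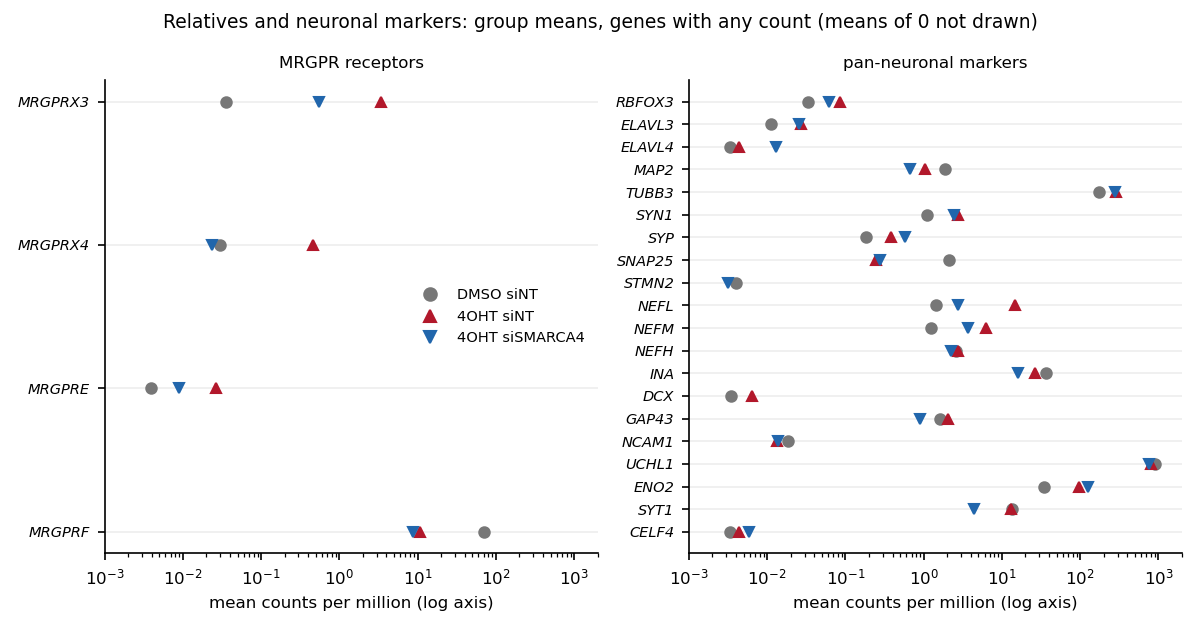
Mean CPM by group (log axis) for MRGPR receptors and pan-neuronal markers with any count; circles are DMSO siNT, upward triangles 4OHT siNT and downward triangles 4OHT siSMARCA4, and means of 0 are not drawn. MRGPRX3 and MRGPRX4 stand highest in 4OHT siNT, and RBFOX3, ELAVL3, ELAVL4, STMN2, DCX, NCAM1 and CELF4 stay below 0.1 CPM in every group.

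The label of neural genes was checked against neuronal markers. Some were near 0 in this fibroblast line: over all 17 libraries RBFOX3 had 55 counts, ELAVL3 19, NCAM1 14, ELAVL4 6, CELF4 4, DCX 3 and STMN2 2. Others on the list were expressed. Means in DMSO siNT, 4OHT siNT and 4OHT siSMARCA4 were 36.4, 26.1 and 16.0 CPM for INA, 1.09, 2.74 and 2.42 for SYN1, and 1.87, 1.04 and 0.671 for MAP2. The list thus does not settle the label. The 20 markers summed to 1080 to 1395 CPM in DMSO siNT, 1148 to 1334 in 4OHT siNT and 1061 to 1301 in 4OHT siSMARCA4, mostly from UCHL1 and TUBB3. Of 13 tested, 0 rose and 5 fell on knockdown, with a median of -0.32. NEFL, the light neurofilament, had means of 1.43, 14.7 and 2.71 CPM and a log2 difference of -2.43 on knockdown. SYT1 (-1.57) and GAP43 (-1.21) also fell, and with senescence 6 rose and 3 fell.

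Of 12 genes for REST and its co-repressors, 0 rose and 4 fell on knockdown, with the largest of these differences at RCOR1 (-0.33). REST was at 48.1, 41.8 and 44.7 CPM in the 3 groups, with a log2 difference of -0.20 with senescence (adjusted p = 0.0436). That call was lost (adjusted p up to 0.104) without any one of DMSO 2-2VM, 4-2VM or 4-3VM, of 4OHT siNT 4-1VM, 4-2VM or 4-3VM, or of 4OHT siSMARCA4 2-1VM. Of 22 immediate early genes of cAMP and growth factor signalling, the list around the CRE of VGF, 4 rose and 3 fell on knockdown. NR4A2 rose by 0.94, IER3 by 0.54 and NR4A3 by 0.53, while EGR2 (-1.23), EGR3 (-0.49) and IER2 (-0.40) fell. With senescence 13 of these 22 rose and 3 fell, including ARC at 4.49, EGR3 at 3.68 and IER3 at 3.27, and BDNF at -1.92.

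Markers of other cell types were set beside these values, and their part in the levels of the 5 genes was not tested. Fibroblast markers moved with the knockdown: 10 of 15 fell and 0 rose, among them COL1A2 (-1.49), COL1A1 (-1.46) and PDGFRB (-1.27), and the list summed to 29665 to 45391 CPM in 4OHT siNT and 17907 to 30999 in 4OHT siSMARCA4. Glial and Schwann cell markers summed to 2.98 to 4.21 CPM in 4OHT siNT and 1.80 to 2.34 in 4OHT siSMARCA4, with 1 of 2 tested lower. Epithelial markers summed to at most 1.29 CPM in any library and skeletal muscle markers to at most 1.69. Of endothelial markers 1 of 7 rose (EGFL7, whose call held in 7 of 17 fits without 1 library) and 1 fell (PECAM1) on knockdown, the 1 epithelial marker tested fell (EPCAM, held in 11 of 17), and 0 of 3 immune and 0 of 2 muscle markers passed. With senescence 5 of the 7 endothelial markers rose and 0 fell, with a median of 1.76, and the list summed to 17.8 to 22.1 CPM in DMSO siNT, 28.0 to 34.1 in 4OHT siNT and 26.8 to 35.8 in 4OHT siSMARCA4. Among them PECAM1, an adhesion molecule of endothelial cells, had means of 0.0145, 0.936 and 0.341 CPM in the 3 groups. Of fibroblast markers 4 rose and 8 fell with senescence, 1 glial marker rose and 1 fell, 1 immune marker rose, and 1 epithelial and 1 muscle marker fell.

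The surroundings of the genes were read in the same fit. Within 100 kb of the 5 bodies, 14 other genes were tested, of which 0 rose and 3 fell on knockdown, where 10.4% of all genes were higher and 13.8% lower. Near MRGPRX4, the acute-phase gene SAA1 fell by 1.31 together with MRGPRX3, and TRAK1, 31.9 kb from CCK, fell by 0.26. AP1S1, which lies 0.913 kb from VGF on the opposite strand, was at -0.27 (adjusted p = 0.0926), against -3.79 for VGF. With senescence 7 of the 14 rose and 1 fell: MRGPRX3, SAA1 by 7.76 and SAA2 by 5.23 near MRGPRX4, AP1S1 by 0.42, ZNHIT1 by 0.38, CLDN15 by 0.35 and PLOD3 by 0.33 near VGF, and TRAK1 at -0.38. SAA1 had means of 0, 0.508 and 0.200 CPM in DMSO siNT, 4OHT siNT and 4OHT siSMARCA4, and SAA2 0.00723, 0.354 and 0.182. These 2 genes and MRGPRX3 passed the filter on low counts only through 4OHT libraries, which favours a rise with senescence. Nothing is read from their calls, and the 7.76 of SAA1 is set by how the fit treats 0. Between the numbers within 4OHT siNT 0 of the 14 passed, where 3.59% of all genes did.

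Repeat loci inside the gene bodies, which were counted apart from the genes, held few counts. The bodies of VGF, CCK, SCN4B, MRGPRX4 and MEGF10 held 0, 4, 24, 1 and 240 annotated repeat loci, and the repeats of a body held at most 6 counts in any library. Long non-coding RNAs overlapped CCK and MRGPRX4 on the opposite strand, and the counting was strand-specific.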

How the data were processed

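Poly(A)-enriched, strand-specific RNA was sequenced from 17 libraries in 3 groups. The authors trimmed reads with cutadapt 4.7, aligned them to GRCh38 with HISAT2 2.2.1 and counted genes (Ensembl) and repeats with TElocal, which shares multi-mapping pairs by maximum likelihood. The deposited values were expected counts, written as whole numbers and not normalised, 1 table per library. Library totals ranged from 39.1 to 69.0 M counts, with 26312 to 29253 genes detected, and intervals cover counting error and the spread between libraries only. No 2 libraries of a group differed by less than sampling noise.

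Here genes and repeat subfamilies were joined, filtered with filterByExpr (minimum count 10, minimum total count 15) and scaled by TMM. Quasi-likelihood models (edgeR 4.0.16, R 4.3.3) were fitted with 3 group terms, or with group and siRNA number, over all 17 libraries. P-values were adjusted by Benjamini-Hochberg over 19473 genes, and a call is an adjusted p under 0.05. The scripts were tested on simulated data. Values in log2 CPM used a prior count of 2. Symbols were matched for 19465 genes, promoters came from RefSeq (GRCh38.p14) for all 5 genes, and positions from GENCODE 44. Motifs and promoter stretches were read with Python 3.11.15. DESeq2 1.42.0, other scalings, filters, covariates, blocks and each library left out were the alternatives.

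The 5 genes, 14 gene lists and tests were chosen with earlier results of these data known, and lists are described by counts and medians. The rule for naming took the 5 genes, SMARCA4, up to 3 genes a direction per list and comparison, the 3 most correlated genes per member, the next 5 falls and tested genes within 100 kb. Beyond it, genes with values from the lists (SCG5, SCN2B, MEGF11, MRGPR receptors, neuronal markers at or near 0, REST) were named after their values were seen. Some genes that the rule takes are not reported here.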

Additional observations from a re-analysis of the deposited data

Results flagged for a closer look

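In 15 group-by-gene sets of libraries, 3 held a library far from the others, judged by its gap over the range. The rule gives about 1 in 20 for independent normal values. Some sets hold few counts, and CCK and SCN4B flag the same library, so nothing is read from the number flagged. DMSO library 2-2VM was the highest of its group for CCK, at 1.56 CPM against 0.562 to 0.789 in the other 4, and for SCN4B, at 6.54 CPM against 1.12 to 1.63. In 4OHT siSMARCA4, library 4-2V was the highest for MEGF10, at 0.117 CPM (8 counts) against 0 to 0.0391. The same library had the highest SMARCA4 of that group, at 127 CPM, and a link between these values was not tested. For VGF the fall with number 2 less that with number 4 was -1.40 on the log2 scale. It was flagged by an adjusted p under 0.05, which was lost in 11 of the 17 fits without 1 library. CCK at -2.47 and SCN4B at -3.31 were not flagged. The genes were chosen on these falls, so the flag is no test and the values are a description. For VGF all 3 knockdown libraries of number 2 lay below all 3 of number 4, with the nearest at 5.40 and 5.74 CPM. That difference did not pass (edgeR quasi-likelihood, adjusted p = 0.289). All 3 VGF controls of number 2 lay above all 3 of number 4. The share of all genes split in these ways was not counted, so nothing is read from either split.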

How the results depend on the processing

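The rise of VGF with senescence and the low ends of CCK and SCN4B against DMSO siNT kept their direction and call in all alternatives that could be fitted. Depth limits MRGPRX4 and MEGF10, whose few counts outside 4OHT siNT make their folds unstable. Whether tags or numbers pair the libraries was not settled. Deviations from group means correlated by -0.45 to 0.30 in the 7 pairs that share a full label, 2 of them over 0.1. Of pairs with the same tag number 14 of 32 were over 0.1, and of those with different tag numbers 19 of 64. With the same siRNA number 13 of 48 were over 0.1, and with different siRNA numbers 20 of 48. Such correlations cannot exclude a pairing.

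Fitted with a replicate block by full label, 3045 genes passed for knockdown (4703 without it) and 6329 for knockdown cells against DMSO siNT (10725). The values of MRGPRX4 under this block and in VM libraries alone are set by how the fit treats 0, since the 3 VM knockdown libraries held 0 counts, and are not estimates of size. That block gave -7.91 for MRGPRX4 and -4.66 for MEGF10 on knockdown, 0.92 for CCK (call lost, adjusted p = 0.307) and -0.70 for SCN4B (adjusted p = 0.328) with senescence, and -4.45 for MRGPRX4 and -0.51 for MEGF10 against DMSO siNT. With a replicate block by tag number, 6 genes passed between the siSMARCA4 numbers, and no call on the 5 genes changed.

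Number 4 alone gave 1198 genes on knockdown, -3.0 for VGF, -2.43 for CCK, -2.97 for SCN4B, -2.91 for MRGPRX4, -2.97 for MEGF10 and 0.13 for PTPRN2. It gave 0.33 for CCK (call lost) and -1.30 (passing) for SCN4B with senescence, and 0.10 for MRGPRX4 against DMSO siNT. Number 2 alone gave -4.41 for VGF, -4.95 for MRGPRX4, -5.35 for MEGF10 and 0.069 for UCN2 on knockdown, and -0.73 (passing) for VGF and -0.78 for MEGF10 against DMSO siNT. VM libraries alone gave -7.58 for MRGPRX4 and -4.63 for MEGF10 on knockdown. They gave 1.04 for CCK with senescence (call lost, adjusted p = 0.152) and -0.53 for MEGF10 against DMSO siNT. Between the siNT numbers they gave 1.51 for MRGPRX4, with no test given. Between the siSMARCA4 numbers they gave -0.58 for SCN4B and 0.00 for MRGPRX4. In the difference of falls they gave -1.73 for VGF. With V or VM as a covariate MRGPRX4 was at -5.01 on knockdown and SCN4B at -0.077 between the siSMARCA4 numbers.

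Without scaling VGF passed against DMSO siNT at -0.56, and with only the groups compared at -0.51. With only the groups compared MRGPRX4 was at 1.48 between the siNT numbers, with no test given. The difference of falls, given with no test for the 5 genes, was -2.46 for CCK and -3.29 for SCN4B without a filter and -2.47 and -3.31 by DESeq2.

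Between the siSMARCA4 numbers 45 genes passed, or 286 without a filter, 2 with only the groups compared, 9 in VM libraries and 345 by DESeq2. Between the siNT numbers 700 passed, or 1084 with the covariate, 2898 with only the groups compared, 1280 in VM libraries and 1320 by DESeq2. For the difference of falls 139 passed, or 251 without a filter, 209 with the covariate, 21 in VM libraries and 526 by DESeq2. For V against VM 380 passed, or 1486 without a filter and 1146 by DESeq2.

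Leaving out 1 library at a time moved these counts to between 3 (without siSMARCA4 2-3VM) and 1239 (without siSMARCA4 4-2VM), 12 (without siNT 4-2VM) and 1261 (without siNT 2-1VM), 4 (without siNT 2-3VM) and 542 (without siSMARCA4 4-2VM), and 90 (without siSMARCA4 4-2V) and 1507 (without siSMARCA4 2-3V). VGF then ran from -0.62 to -0.41 against DMSO siNT, passing without DMSO 2-2VM, siNT 2-3VM or siSMARCA4 4-2VM, from 0.69 to 1.00 between the siNT numbers and from -1.54 to -1.20 in the difference of falls. CCK ran from 1.00 to 1.55 with senescence, from 1.66 to 1.96 between the siNT numbers and from -4.19 (without siSMARCA4 2-3V) to -2.0 in the difference of falls. SCN4B ran from 3.21 to 3.65 between the siNT numbers and from -0.81 (without siSMARCA4 2-3V) to 0.68 between the siSMARCA4 numbers. MRGPRX4 ran from -0.61 to 0.0043 (without siSMARCA4 2-3VM; 0.0026 without 2-1VM) against DMSO siNT and from -3.75 (without siSMARCA4 2-3V, which leaves 0 counts in number 2, so the fit sets the value) to 0.19 (without siSMARCA4 4-3V) between the siSMARCA4 numbers, and fell under the filter in 5 of the 17. MEGF10 ran from -4.95 (without siSMARCA4 4-2V) to -3.63 on knockdown and from -0.41 (without the same library) to 1.23 against DMSO siNT. Among relatives and neighbours, of the 17 fits without 1 library, the knockdown call held in 10 for UCN2 and for RCOR1, 11 for CD36, 13 for EGR3, LRP1 and TRAK1 each, 15 for SCN8A and 16 for NR4A3, and the senescence call in 11 for CLDN15 and 12 for ZNHIT1. With a prior count of 0.5 in place of 2, PMEL took the place of LINC00880 among the 3 genes most like VGF, and another gene that of TNFRSF21 for MRGPRX4. The causes of these shifts were not tested.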
